A study of Mus musculus with 2 samples.

Results

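Netrins and Slits are secreted guidance proteins, and the genes described here are 1 netrin, Ntn1, the netrin receptor genes Dcc, Unc5c and Unc5d, the 3 Slit genes Slit1, Slit2 and Slit3, and the Slit receptor genes Robo1 and Robo2. They were chosen by gene name, not by level, and all 9 were found among the 32285 genes counted. Nuclear RNA of the hippocampus was counted in 2 single-nucleus libraries, 1 labelled CAPZA2+/-, a heterozygous knockout (Het), and 1 labelled wild-type (WT). Capza2 encodes an alpha subunit of the protein that caps the barbed ends of actin filaments. The number of mice behind each library, their age, sex and strain, and the way the knockout was made are not given in the sources used here. With 1 library per genotype no difference below has a replicate check, so no test between genotypes is given, and every interval covers counting error only.

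In the developing nervous system, netrin-1 attracts growing axons that carry DCC and repels axons that carry UNC5 receptors, while Slits repel axons that carry ROBO receptors. In the adult brain the same ligands and receptors act at synapses and in glia. Oligodendrocyte precursors, the dividing glia that give rise to myelinating oligodendrocytes, are among the cells in which netrin receptors are known to act.

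The Het library held 62702888 transcripts counted by unique molecular identifier (UMI) in 7801 barcodes, and the WT library 58701532 UMIs in 6512 barcodes. Of these, 7211 Het and 6424 WT barcodes had at least 500 genes and at most 5% mitochondrial UMIs. After removal of likely doublets, 6795 Het and 6094 WT nuclei were compared, with a median of 5770 and 6658.5 UMIs per nucleus. The libraries share 13 barcode sequences. Capza2, the check of the genotype, was at 67.4 UMIs per 1e6 UMIs of the same nuclei (CPM) in Het and 86.0 CPM in WT nuclei, a log2 ratio of -0.35 (95% interval -0.41 to -0.29). This is 0.785-fold, and how far the knockout should lower this RNA is not given. In the classes named below it ran from -0.09 (-0.42 to 0.24) in microglia-like to -0.59 (-0.85 to -0.34) in oligodendrocyte-like nuclei. The interval also held 0 in astrocyte-like nuclei (-0.29, -0.65 to 0.07). Nuclei were grouped by joint clustering without the 9 genes. Clusters are called "like" a cell type from its marker genes, and 8 classes held 200 nuclei or more in both libraries: dentate granule-like (2045 Het and 1477 WT nuclei), CA1 pyramidal-like (788 and 914), CA3 pyramidal-like (396 and 462), subicular, entorhinal or cortical excitatory-like (207 and 281), inhibitory neuron-like (323 and 445), astrocyte-like (362 and 298), oligodendrocyte-like (1129 and 799) and microglia-like nuclei (317 and 227).

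All 9 genes are long. In the GENCODE M21 annotation of GRCm38, their spans ran from 143 kb for Slit1 (chromosome 19, 41600257 to 41743665, minus strand) to 1097 kb for Dcc, beside a median of 12.3 kb over all genes matched. Robo2 (chromosome 16, 73891839 to 74411825, minus strand) and Robo1 (chromosome 16, 72308306 to 73046095, plus strand) lie on the same chromosome, on opposite strands. Ntn1 (68209364 to 68400823, minus strand) and Slit3 (35121224 to 35708507, plus strand) are both on chromosome 11, and Slit2 is on chromosome 5 (47983138 to 48307733, plus strand). Levels are not compared between genes, since nuclear RNA holds unspliced transcripts and longer genes can give more UMIs.

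Slit2 and Slit3 each hold, on their own strand and outside every annotated exon of the host, 1 of the 2 hairpins that give the microRNA miR-218, and these sequences are shown because the host transcripts counted here run through them. The mature 5p strand is the same from both loci, with its seed (bases 2 to 8) in capitals, while the 3p strands and the hairpins around the 5p strand (in capitals there) differ. Sequences are from RefSeq, build GRCm38.p6, plus strand, with Mir218-1 at chr5:48223942-48224051 and Mir218-2 at chr11:35616816-35616925.
miR-218-5p: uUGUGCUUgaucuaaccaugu
miR-218-1-3p: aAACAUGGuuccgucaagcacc
miR-218-2-3p: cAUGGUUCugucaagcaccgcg
Mir218-1 hairpin in Slit2: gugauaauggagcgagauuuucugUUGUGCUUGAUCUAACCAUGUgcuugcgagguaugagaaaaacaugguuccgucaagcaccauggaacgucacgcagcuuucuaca
Mir218-2 hairpin in Slit3: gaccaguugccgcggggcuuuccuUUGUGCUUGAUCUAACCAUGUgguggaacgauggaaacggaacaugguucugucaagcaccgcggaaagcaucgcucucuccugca

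The 120 bases before the start are shown for Slit2 and Robo2, the only genes described here with a window that could be printed. They were not picked by level, and no link between these bases and the levels was tested. Both windows are from RefSeq, build GRCm38.p6, 5′ to 3′ on the gene's strand. Slit2 is at chr5:47983018-47983137 plus strand and Robo2 at chr16:74411826-74411945 minus strand. Capitals mark the motif GGGCGG, known from promoters rich in these bases, and the motif TATAAA, known as the core of a classical promoter element. Both strands were searched for each, and the motifs do not overlap. The Slit2 window held GGGCGG at 3 places and TATAAA at 1, had 75% G and C and 13 CG pairs. The Robo2 window held neither motif and had 66.7% G and C and 6 CG pairs, and it is 1 of 3 Robo2 starts in the table. Of 32851 RefSeq windows of this length, 26.5% held GGGCGG and 6.34% TATAAA, with a median of 54.2% G and C. A match of letters is a description and not a site.
Slit2 promoter: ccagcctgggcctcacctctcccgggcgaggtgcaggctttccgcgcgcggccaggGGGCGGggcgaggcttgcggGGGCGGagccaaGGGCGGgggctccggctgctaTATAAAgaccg
Robo2 promoter: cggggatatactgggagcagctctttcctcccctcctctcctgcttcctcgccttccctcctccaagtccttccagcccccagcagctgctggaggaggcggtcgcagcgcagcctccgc

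The number of nuclei that carry a gene, meaning at least 1 UMI of it, ranged widely. Ntn1 was the rarest, with 238 UMIs in 162 of 6795 Het nuclei (2.38%, 2.03 to 2.78) and 224 UMIs in 147 of 6094 WT nuclei (2.41%, 2.04 to 2.83), with 95% exact intervals. Slit2 was carried by 25.3% of Het and 31.6% of WT nuclei, Unc5d by 31.6% and 38.1%, and Slit1 by 45.9% and 50.3%. The other 5 genes were carried by most nuclei, from 54.0% of Het and 59.4% of WT nuclei for Robo1 to 71.8% and 77.7% for Unc5c. Single UMIs made up 70.4% of the Het and 68.0% of the WT carriers of Ntn1, but 5.01% and 5.75% of those of Slit3, whose carriers had a median of 11 UMIs in both libraries. The median nucleus carried 5 of the 9 genes in both libraries, and 8.46% of Het and 4.68% of WT nuclei carried none. The libraries differed in depth, with a median of 5770 UMIs in Het and 6658.5 in WT nuclei, and in their mix of nuclei. Among unnamed nuclei 36.6% of Het and 6.47% of WT carried none. These include cluster 15, a shallow cluster (median 683 UMIs) of 234 Het and 44 WT nuclei. With nuclei thinned to 1000 UMIs the share with none was still higher in Het. Shares over all nuclei are therefore not read as a difference between genotypes.

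Microglia-like nuclei, which should lack these genes, set the background. There the 9 genes were carried by 0.315 to 4.73% of Het nuclei, and by 0 to 7.93% of WT nuclei, at a median of 1464 and 1479 UMIs per nucleus. Median depth was higher in every other class compared (1754 and 1846 UMIs in oligodendrocyte-like, 17392.5 and 14012 UMIs in CA3-like nuclei), so shares were also taken with each nucleus thinned to 1000 UMIs. On thinned counts the microglia-like shares were 0 to 4.11% in Het and 0 to 5.74% in WT nuclei. A share at or below these is read as background.

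**Figure D1:**
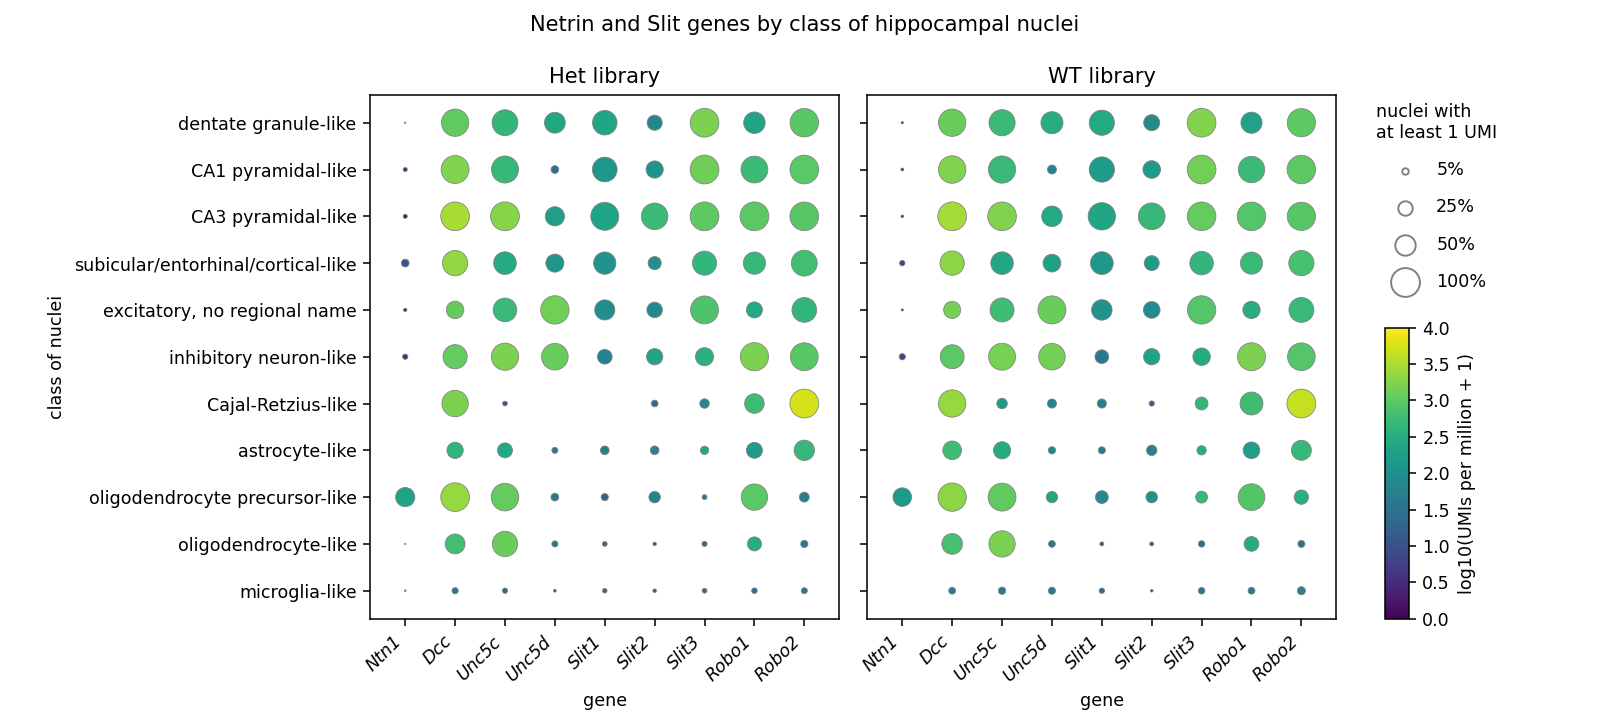
Share of nuclei with at least 1 UMI (circle area) and level (colour, log10 of CPM plus 1) of the 9 genes in 11 classes of nuclei, Het library left and WT library right. Ntn1 stands out in oligodendrocyte precursor-like nuclei, Robo2 in Cajal-Retzius-like nuclei, and all genes are low in microglia-like nuclei.

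Ntn1, the netrin ligand, lay mostly in oligodendrocyte precursor-like nuclei. This class (177 Het and 182 WT nuclei) made up 2.60% of Het and 2.99% of WT nuclei and held 54.6% and 55.8% of all Ntn1 UMIs. Ntn1 was at 216 CPM (180 to 256) in the Het and 153 CPM (127 to 182) in the WT nuclei of the class, and was carried by 44.6% (37.2 to 52.3) and 41.8% (34.5 to 49.3) of them. Thinned to 1000 UMIs, 19.9% of Het and 19.4% of WT nuclei of the class still carried it, against 0% of microglia-like nuclei in both libraries. In no class with 200 nuclei did it pass 10.2 CPM in Het or 6.23 CPM in WT nuclei, and 0 of 362 Het and 0 of 298 WT astrocyte-like nuclei carried it, which allows a share of nuclei with a UMI, not of nuclei that express the gene, of up to 0.829% and 1.01%.

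Small numbers of Ntn1 UMIs lay elsewhere. Cluster 16 of the subicular, entorhinal or cortical class, led by Vwc2l and Cntn6, held 26 UMIs in 15 Het nuclei and 20 UMIs in 10 WT nuclei, and cluster 17 of the same class held none in either. Pericyte or smooth muscle-like nuclei held 8 UMIs in 6 of 36 Het nuclei and 2 UMIs in 2 of 24 WT nuclei. These nuclei held 3.36% of Het and 0.893% of WT Ntn1 UMIs, but only 0.161% and 0.117% of the UMIs of all genes. Their Ntn1 share was thus above their share of all UMIs, on few counts. Between the libraries, Ntn1 over all nuclei was at 4.27 CPM in Het and 4.18 CPM in WT, a log2 ratio of 0.03 (-0.24 to 0.30). In the precursor-like class alone, on 130 UMIs in Het and 125 in WT, it was 0.49 (0.13 to 0.86). There the 7 markers of precursors summed to 13864 CPM in Het and 10692 CPM in WT, all 7 higher in Het, and their part in the result was not tested.

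Dcc, the attractive netrin receptor (chromosome 18, 71253634 to 72351069, minus strand), was highest in CA3-like nuclei (3022 CPM in Het and 2849 CPM in WT), followed by oligodendrocyte precursor-like (2351 and 1982 CPM) and subicular, entorhinal or cortical-like nuclei (2200 and 2024 CPM). Classes are said to overlap where the ranges of the 2 libraries' levels meet, or where their counting intervals meet in either library. The precursor-like and subicular, entorhinal or cortical-like levels overlapped. CA1-like nuclei came next (1689 and 1677 CPM), then dentate granule-like (1071 and 1193 CPM) and inhibitory neuron-like nuclei (1110 and 958 CPM), which overlapped. Oligodendrocyte-like nuclei were at 616 and 675 CPM, astrocyte-like at 396 and 589 CPM and microglia-like at 43.8 and 44.9 CPM. The oligodendrocyte-like and astrocyte-like levels overlapped.

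The class means of Dcc hid differences between clusters. Within the subicular, entorhinal or cortical class, Dcc was at 3163 CPM in Het and 3221 CPM in WT nuclei of cluster 16, but at 602 and 315 CPM in cluster 17, which was led by Cdh18, Dpp10 and Foxp2. Cluster 14, excitatory nuclei with no regional name led by Npsr1, held 70.3 CPM in Het and 93.1 CPM in WT nuclei. The 11 nuclei of cluster 30 (2 Het and 9 WT), led by Cpa6, were at 10869 and 11274 CPM. These 4 clusters stood in the same order in both libraries.

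Unc5c, a repulsive netrin receptor (chromosome 3, 141465216 to 141834924, plus strand), was high both in neurons and in the oligodendrocyte lineage. CA3-like nuclei held 1851 CPM in Het and 1775 CPM in WT, inhibitory neuron-like nuclei 1650 and 1510 CPM, oligodendrocyte-like nuclei 1197 and 1569 CPM and oligodendrocyte precursor-like nuclei 1143 and 1057 CPM. The CA3-like level stood above the next in both libraries, and the levels of the inhibitory and oligodendrocyte-like classes, and of the oligodendrocyte-like and precursor-like ones, overlapped. CA1-like (482 and 494 CPM) and dentate granule-like nuclei (449 and 511 CPM) overlapped further down. Of oligodendrocyte-like nuclei, 77.1% in Het and 83.2% in WT carried Unc5c, at a depth close to that of microglia-like nuclei, of which 3.47% and 6.61% carried it.

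Among inhibitory neurons Unc5c was far higher in 1 cluster. Cluster 20, led by Hapln1, Fgf13, Pde11a and Lamp5, held 5626 CPM in Het (5446 to 5811) and 5435 CPM in WT nuclei (5280 to 5593), and all 52 Het and 76 WT nuclei carried it. The other 2 inhibitory clusters were at 1052 CPM in Het and 794 CPM in WT (cluster 10, led by Kcnmb2) and at 922 and 712 CPM (cluster 19, led by Vip). Unc5c was not among the genes used to form the clusters.

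Unc5d, another UNC5 receptor (chromosome 8, 28646717 to 29219636, minus strand), was at 1183 CPM in Het and 1425 CPM in WT inhibitory neuron-like nuclei, 4.86 and 4.78 times the next class, dentate granule-like nuclei (243 and 298 CPM). Excitatory nuclei with no regional name held 1381 and 1216 CPM, and 96.9% of them in Het and 94.5% in WT carried Unc5d. CA3-like nuclei held 176 and 259 CPM, with most of it in cluster 8 (315 and 394 CPM) rather than cluster 9 (46.0 and 56.2 CPM). CA1-like nuclei held 28.9 and 61.7 CPM, astrocyte-like nuclei 38.1 and 73.0 CPM and oligodendrocyte-like nuclei 35.5 and 39.1 CPM, beside 6.26 and 39.3 CPM in microglia-like nuclei. The levels of these 3 classes and of microglia-like nuclei overlapped.

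In the CA1-like class Unc5d came from few nuclei. It was carried by 57 of 788 Het nuclei (7.23%) and 88 of 914 WT nuclei (9.63%), against 0.946% and 6.17% of microglia-like nuclei, at median depths of 11025 and 9806 UMIs. All of its 296 Het and 630 WT UMIs lay in the 10% of nuclei with most of them, since fewer nuclei than that carried it. Genes of like UMI number in the class had a median of 51.3% and 42.9% there. Cluster 5 of the class, led by Cpne7, Man1a and Ndst3, held 272 of the Het and 593 of the WT UMIs, and the larger cluster 3 held 24 and 37.

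Slit1, a Slit ligand, was highest in dentate granule-like nuclei (235 CPM in Het and 264 CPM in WT), then CA3-like (213 and 234 CPM), CA1-like (131 and 158 CPM) and subicular, entorhinal or cortical-like nuclei (111 and 129 CPM). Among these 4, the CA1-like and the subicular, entorhinal or cortical-like levels overlapped and the other neighbours did not. Inhibitory neuron-like (57.6 and 41.9 CPM) and astrocyte-like nuclei (48.0 and 40.1 CPM) overlapped, and oligodendrocyte-like nuclei were at 15.3 and 10.1 CPM, beside 20.9 and 22.4 CPM in microglia-like nuclei.

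Slit2, the second ligand, was highest in CA3-like nuclei, at 518 CPM in Het and 475 CPM in WT, 2.44 and 2.35 times the level of inhibitory neuron-like nuclei (212 and 202 CPM). CA3-like nuclei held 44.5% of all Slit2 UMIs in Het and 36.3% in WT, and 84.8% and 85.9% of them carried it. Within the class, cluster 9, led by Nectin3 and Trhde, was at 713 CPM in Het and 543 CPM in WT, and cluster 8 at 309 and 429 CPM. Slit2 itself was among the 10 genes with the highest ratio in cluster 9, although it was kept out of the clustering.

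Other classes held Slit2 in subsets too. Among inhibitory clusters it was at 317 CPM in Het and 321 CPM in WT in cluster 10, at 34.1 and 22.3 CPM in cluster 19 and at 73.5 and 19.7 CPM in cluster 20. In CA1-like nuclei it was at 218 and 278 CPM in cluster 5 but 41.4 and 42.7 CPM in cluster 3. The 10% of CA1-like nuclei with most Slit2 held 71.4% of its Het and 65.6% of its WT UMIs, beside a median of 36.2% and 34.2% for genes of like UMI number.

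Slit3, the last Slit ligand, was carried by nearly every dentate granule-like and CA1-like nucleus. It was found in 2029 of 2045 Het and 1462 of 1477 WT dentate granule-like nuclei and in 99.9% and 99.6% of CA1-like nuclei, at 1633 and 1759 CPM and at 1331 and 1369 CPM. CA3-like nuclei held 1025 and 1146 CPM, and subicular, entorhinal or cortical-like nuclei 432 and 419 CPM. No neighbours among these overlapped. Inhibitory neuron-like (363 and 279 CPM) and astrocyte-like nuclei (265 and 301 CPM) did. In dentate granule-like nuclei the 10% of nuclei with most Slit3 held 26.0% of its Het and 26.8% of its WT UMIs, under the 27.8% and 29.0% of genes of like UMI number.

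In astrocyte-like nuclei Slit3 lay in few nuclei. It was carried by 8.29% of Het and 10.4% of WT nuclei, and the 10% of nuclei with most held 100% of its 347 Het and 99.7% of its 330 WT UMIs, beside medians of 47.2% and 44.5%. The markers of dentate granule cells summed to 2912 CPM in Het and 3167 CPM in WT nuclei of this class, with none of the 8 at 0 in either. Their part in the Slit3 level was not tested.

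**Figure D2:**
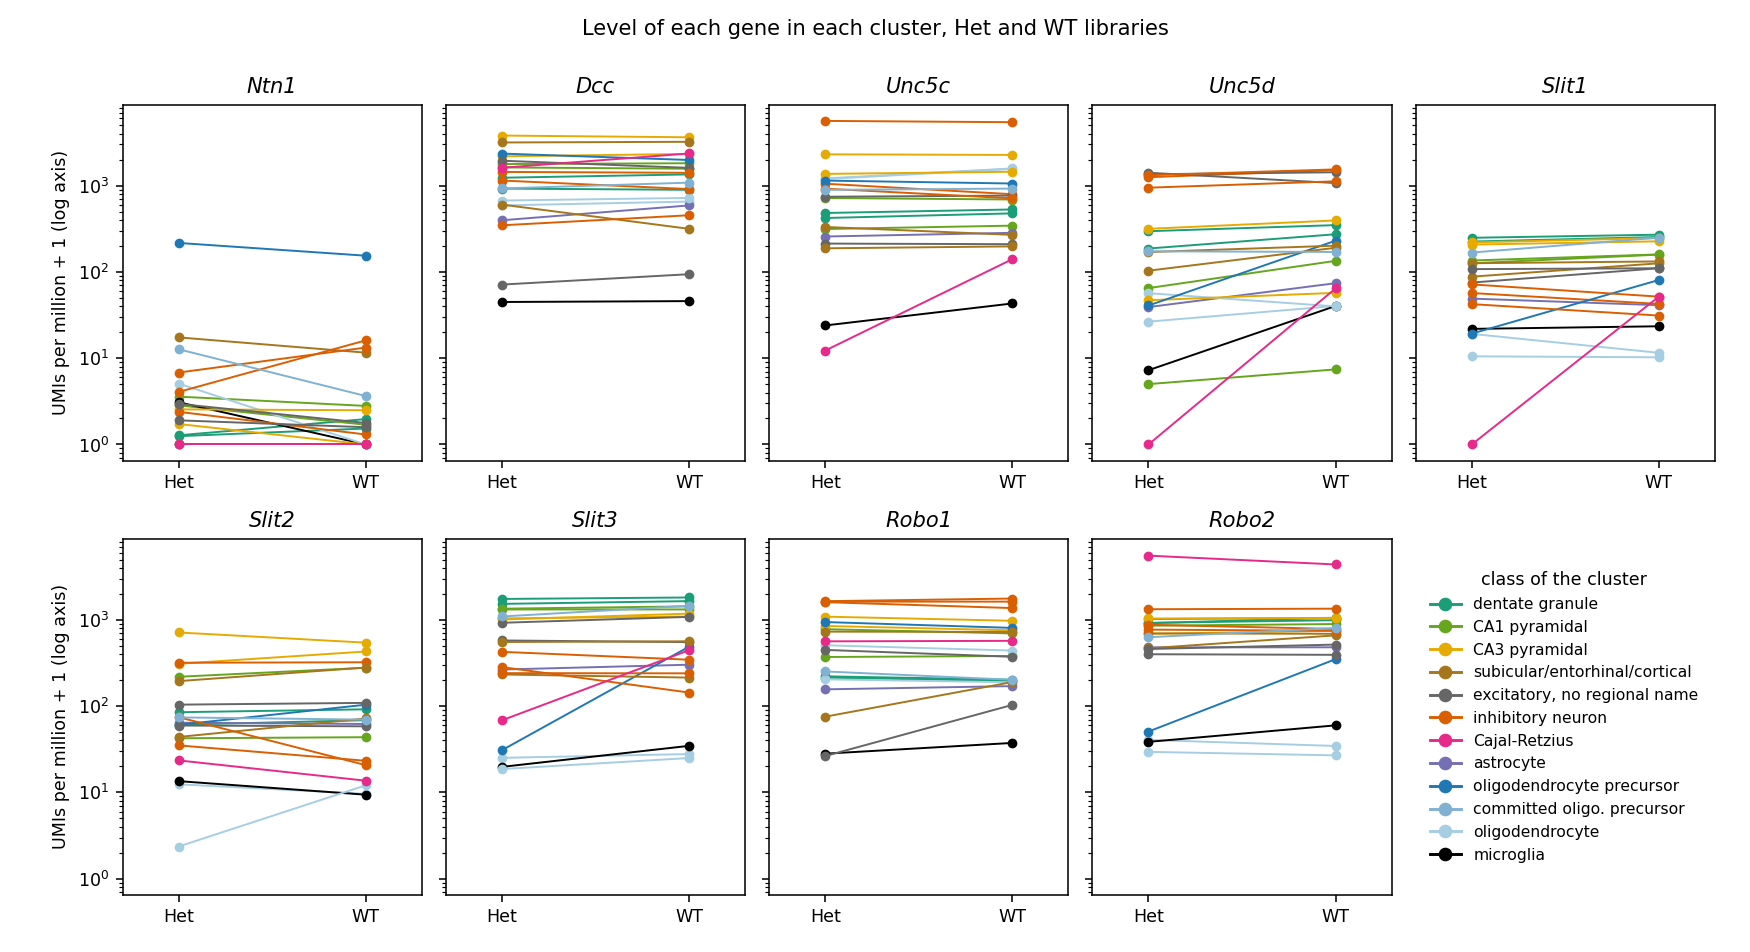
Level of each gene (CPM plus 1, log axis) in each named cluster with at least 30 nuclei in both libraries, Het left and WT right, 1 line per cluster, coloured by class. Most lines are near level, the top Unc5c line is inhibitory cluster 20, the top Robo2 line is the Cajal-Retzius-like cluster, and the steep lines start or end in small or low clusters.

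Robo1, a Slit receptor, was highest in inhibitory neuron-like nuclei, at 1627 CPM in Het and 1619 CPM in WT, 1.67 and 1.92 times the level of CA3-like nuclei (973 and 843 CPM). The 3 inhibitory clusters ranged from 1603 to 1645 CPM in Het and from 1369 to 1766 CPM in WT. Oligodendrocyte precursor-like nuclei (942 and 806 CPM) overlapped with CA3-like ones. CA1-like nuclei held 540 and 517 CPM, subicular, entorhinal or cortical-like nuclei 483 and 504 CPM, oligodendrocyte-like nuclei 304 and 274 CPM, dentate granule-like nuclei 217 and 199 CPM and astrocyte-like nuclei 156 and 170 CPM. Among these, the CA1-like and subicular, entorhinal or cortical-like levels overlapped, as did the dentate granule-like and astrocyte-like ones. In the oligodendrocyte-like class it was at 507 and 440 CPM in cluster 7, led by Anln and Prr5l, and at 203 and 188 CPM in cluster 2.

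Robo2, the other Slit receptor described, was within 868 to 951 CPM in Het and 864 to 1034 CPM in WT in 4 neuron classes, and lower in subicular, entorhinal or cortical-like nuclei (610 and 677 CPM). Dentate granule-like (918 CPM in Het and 1034 CPM in WT), CA1-like (951 and 984 CPM), inhibitory neuron-like (911 and 864 CPM) and CA3-like nuclei (868 and 867 CPM) each overlapped with the next. Robo2 was also counted in astrocyte-like nuclei, at 479 and 480 CPM, a level that did not overlap with the subicular, entorhinal or cortical-like one. The 10% of astrocyte-like nuclei with most Robo2 held 60.7% of its Het and 63.1% of its WT UMIs. Genes of like UMI number had a median of 42.4% and 40.8% there. Markers of dentate granule cells were also counted in this class, and their part in the Robo2 level was not tested. Oligodendrocyte-like nuclei were at 35.9 and 30.9 CPM, beside 37.6 and 58.9 CPM in microglia-like nuclei. In the oligodendrocyte-like class 23.7% of Het and 26.2% of WT nuclei carried Robo1 and 6.38% and 6.01% carried Robo2. These shares are not thinned, and longer genes can give more UMIs, so they are not read as a difference between the genes.

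The highest Robo2 level of any named class was in the small Cajal-Retzius-like class, early-born neurons that make reelin. All 37 Het and all 30 WT nuclei carried it, at 5549 CPM in Het and 4386 CPM in WT. Thinned to 1000 UMIs, 97.2% of Het and 100% of WT nuclei still did. In these nuclei Dcc was at 1609 and 2358 CPM and Robo1 at 563 and 570 CPM, while Slit2 had 2 UMIs in Het and 1 in WT.

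The pattern over 9 classes (at least 50 nuclei in each library) was compared between genes by Pearson's r of log2(CPM + 10) in each library, as a description. The classes share their libraries and their depth, so no p is given. Slit1 and Slit3 were at r = 0.96 in Het and 0.94 in WT, Robo2 and Slit3 at 0.96 and 0.93, Unc5c and Robo1 at 0.89 and 0.80 and Dcc and Robo1 at 0.88 and 0.82. Ntn1 reached at most 0.40 with any of the others.

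Of 11006 other genes ranked, the most like Dcc was Csmd2 (r = 0.96 in Het and 0.96 in WT), followed by C2cd5 and Lmtk2. Unc5c was nearest to Dscaml1, Trpc1 and Magi2, and Unc5d to Atp11b, Moxd1 and Rgs8. Ntn1 was nearest to Scel, Scfd2 and Ebf1, Robo1 to Hacd1, Xkr4 and Gria4, and Robo2 to Galnt18, Dlgap2 and Klhl29. Slit1 was nearest to Nell2, which encodes a ligand of ROBO3 and stood among the pathway genes listed, at 0.97 in both libraries, and then to Syt7 and Ano3. Slit2 was nearest to Col4a2 and Col4a1, which encode chains of basement membrane collagen, at 0.97 and 0.97 and at 0.93 and 0.95, and then to Shisa6. Slit3 was nearest to Slc35f3, Kcnj6 and Kcnip4. Endothelial-like (12 Het and 13 WT nuclei) and pericyte or smooth muscle-like nuclei (36 and 24) were too few to be among the 9 classes. The likeness therefore does not cover them, and endothelial-like nuclei held no Slit2 UMI in either library.

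Between the libraries, none of the 9 genes was past 1.5-fold over all nuclei, where 3.82% of the 17873 genes with at least 50 UMIs were. The nearest was Unc5d, at 276 CPM in Het and 382 CPM in WT, a log2 ratio of -0.47 (-0.50 to -0.44). Slit2 was at 167 and 190 CPM (-0.19, -0.23 to -0.15), Unc5c at 833 and 885 CPM (-0.09, -0.11 to -0.07) and Robo1 at 578 and 612 CPM (-0.08, -0.10 to -0.06). The ratios of Dcc (1506 and 1500 CPM), Robo2 (797 and 807 CPM), Slit1 (152 and 158 CPM) and Slit3 (1092 and 1102 CPM) lay between -0.06 and 0.01. The median of the 9 was -0.06 and that of all genes -0.01. The classes were not in the same proportion in the libraries, so sums over all nuclei also carry that difference: with the same mix of clusters in both libraries, a setting chosen after the data were seen, Unc5d was at -0.31, Slit2 at -0.15, Unc5c at -0.12, Ntn1 at 0.53 and Robo1 at 0.05. The small differences of Robo1 and Unc5c over all nuclei thus moved with the weighting of clusters, and that of Robo1 changed its sign.

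Unc5d was lower in Het than in WT in each of the 7 classes where it had at least 50 UMIs, and the interval lay below 0 in 6 of them. The log2 ratios were -0.29 in dentate granule-like, -1.09 in CA1-like, -0.56 in CA3-like, -0.61 in subicular, entorhinal or cortical-like, -0.27 in inhibitory neuron-like, -0.94 in astrocyte-like and -0.14 in oligodendrocyte-like nuclei, the last with an interval of -0.64 to 0.36. Microglia-like nuclei, under the floor, held 3 UMIs in Het and 14 in WT (-2.65, -5.09 to -0.81), and the CA1-, astrocyte- and oligodendrocyte-like levels overlapped with theirs. Of 19 clusters over the floor, 17 were lower in Het, and the interval of 11 lay below 0. The exceptions were oligodendrocyte cluster 7 (0.52, -0.27 to 1.35) and cluster 18, excitatory with no regional name and led by Tshz2 and Rxfp1, at 1410 CPM in Het and 1070 CPM in WT (0.40, 0.30 to 0.50).

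The share of nuclei that carried Unc5d differed widely between classes, from 4.52% of Het and 5.51% of WT oligodendrocyte-like nuclei upward. In inhibitory neuron-like nuclei 85.1% of Het and 84.5% of WT nuclei carried Unc5d, and 56.3% and 57.5% after thinning. In dentate granule-like nuclei 52.3% and 58.7% did, and 19.6% and 22.4% after thinning. In clusters 14 and 18, where 99.3% and 93.1% of Het nuclei and 97.9% and 89.9% of WT nuclei carried it, the log2 ratios were -0.08 (-0.18 to 0.02) and 0.40. The ratio in the astrocyte-like class rested on 50 and 80 UMIs in 16 and 19 nuclei, and it turned to between 0.05 and 1.05 under other doublet, gene number and clustering settings.

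Unc5d also differed in cluster 11, which was left unnamed and was led by Fras1, Ndst4 and Stac. It was at 56.2 CPM in Het (138 UMIs in 32 of 127 nuclei) and 298 CPM in WT (1316 UMIs in 91 of 265 nuclei), a log2 ratio of -2.40 (-2.67 to -2.15). The share of nuclei that carried it, 25.2% (17.9 to 33.7) in Het and 34.3% (28.6 to 40.4) in WT, had intervals that met. The level thus differed more than the share of carriers. The ratios of Slit1 (-0.49), Slit2 (-0.42), Dcc (-0.41), Robo1 (-0.16) and Slit3 (-0.07) in this cluster were also below 0, and those of Unc5c (0.19) and Robo2 (0.20) above it.

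**Figure D3:**
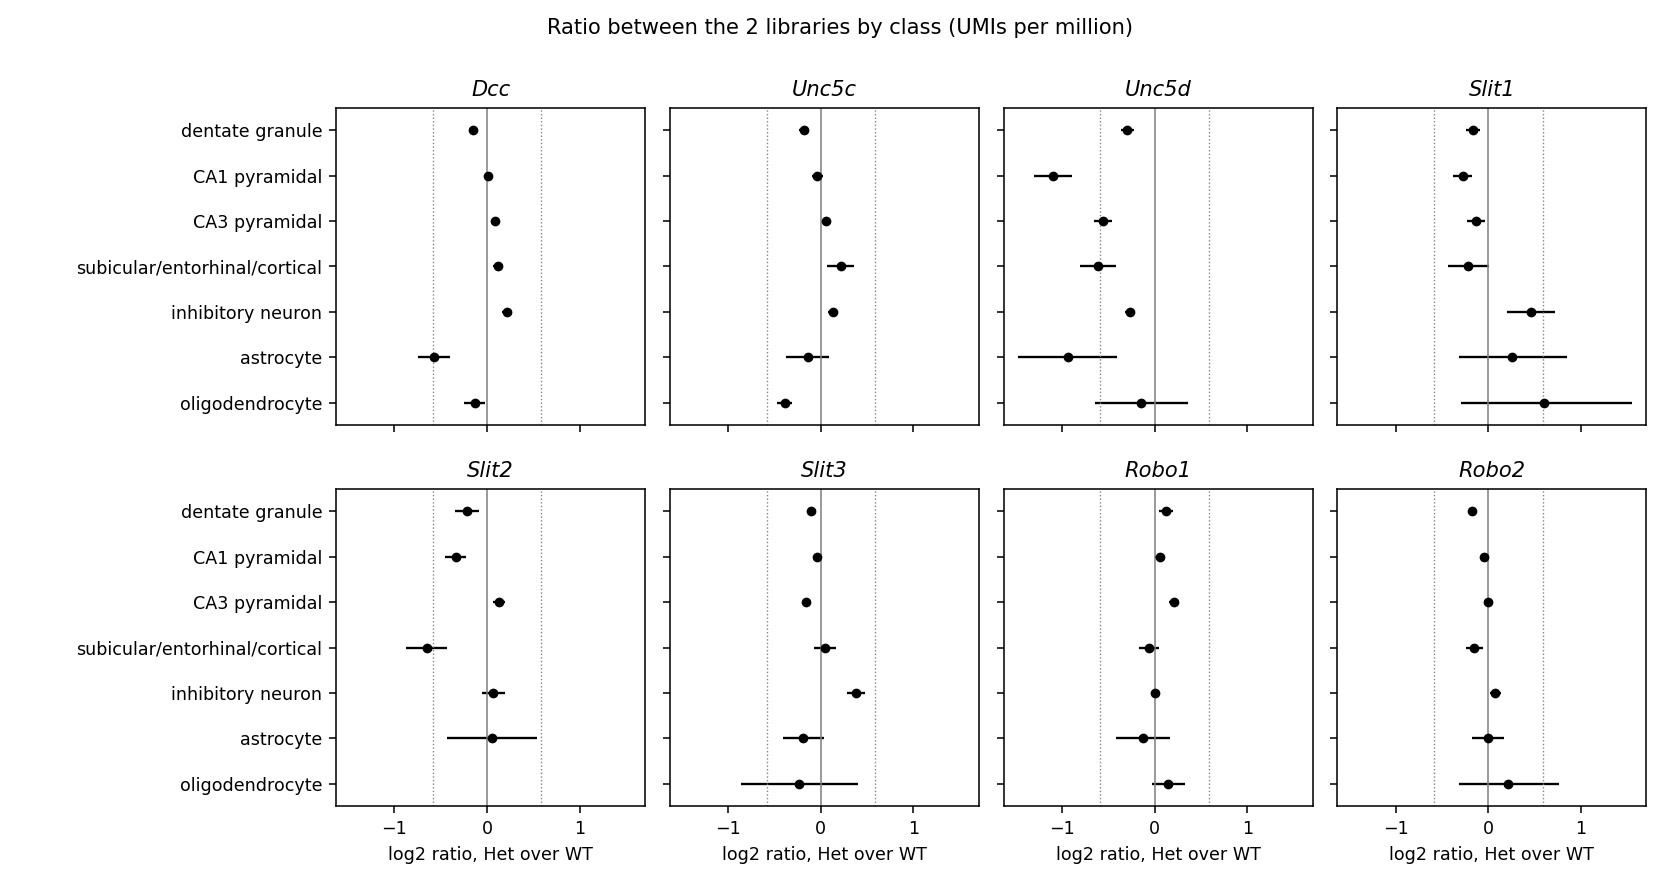
Log2 ratio of CPM, Het over WT, in 7 classes for the 8 genes with at least 50 UMIs there, with 95% exact intervals for counting error only. Dotted lines mark 1.5-fold. All Unc5d points lie left of 0, while points of the other genes lie on both sides.

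In CA1-like nuclei 1 of 8 genes over the floor was past 1.5-fold (Unc5d, lower in Het), where 3.95% of all genes were. Slit1 was at 131 CPM in Het and 158 CPM in WT (-0.28, -0.38 to -0.17) and Slit2 at 115 and 145 CPM (-0.34, -0.45 to -0.22). In subicular, entorhinal or cortical-like nuclei 2 of 8 were past it, both lower in Het, against 5.77% of all genes. They were Unc5d (127 and 194 CPM) and Slit2 (99.7 and 157 CPM, -0.65, -0.88 to -0.43). For Slit2 this difference was -0.72 in cluster 16 and -0.53 in cluster 17. Cluster 17 held larger differences that the class hid: Dcc was at 602 CPM in Het and 315 CPM in WT (0.94, 0.75 to 1.12), and Robo1 at 74.5 and 189 CPM (-1.34, -1.75 to -0.96). Robo1 was also lower in Het in cluster 14, with 26 UMIs in Het and 132 in WT (-2.01, -2.68 to -1.40). In the subicular, entorhinal or cortical class, markers of oligodendrocytes summed to 152 CPM in Het and 232 CPM in WT and those of inhibitory neurons to 608 and 443 CPM, and their part in the result was not tested.

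In CA3-like nuclei none of 8 genes was past 1.5-fold, against 5.89% of all genes. Robo1 was at 973 CPM in Het and 843 CPM in WT (0.21, 0.16 to 0.25), and was higher in Het by about the same in both clusters, 0.17 in cluster 8 and 0.16 in cluster 9. Slit2, at 0.13 (0.06 to 0.19) in the class, was the sum of opposite differences: it was lower in Het in cluster 8 (-0.47, -0.58 to -0.37) and higher in cluster 9 (0.39, 0.31 to 0.48). Cluster 9, where Slit2 is higher in both libraries, held 219 of the 396 Het and 210 of the 462 WT nuclei of the class.

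In dentate granule-like nuclei none of 8 was past 1.5-fold, against 3.68% of all genes, and 7 of the 8 were lower in Het, by -0.11 for Slit3 to -0.29 for Unc5d. Robo1 was the exception (217 and 199 CPM, 0.12, 0.05 to 0.20). The median of the 8 was -0.17 and that of all 13383 genes -0.00147, with 50.3% of all genes lower in Het. Cluster 0 held 1353 Het and 724 WT nuclei of the class, and cluster 1 held 692 and 753. Dcc, at -0.16 in the class, was at 0.05 (-0.01 to 0.11) in cluster 0 and -0.13 (-0.17 to -0.09) in cluster 1. Slit2 was at -0.18 (-0.40 to 0.05) and -0.11 (-0.28 to 0.05). Unc5c, Unc5d, Robo2, Slit1 and Slit3 were lower in Het in both clusters. Markers of choroid plexus epithelium summed to 212 CPM in Het and 87.9 CPM in WT nuclei of the class, 6 of 9 higher in Het, and those of red blood cells to 28.2 and 13.5 CPM, 4 of 4 higher in Het. Their part in the result was not tested. In inhibitory neuron-like nuclei none of 8 was past it, against 4.56% of all genes, and 7 of the 8 were higher in Het. Of all 11721 genes over the floor in the class, 58.1% were lower in Het, with a median of -0.04. Slit1 (57.6 and 41.9 CPM) was at 0.46 (0.20 to 0.72), Slit3 (363 and 279 CPM) at 0.38 (0.28 to 0.48) and Dcc (1110 and 958 CPM) at 0.21 (0.16 to 0.27). By cluster, Dcc was at 0.33 (0.26 to 0.40) in cluster 10 and 0.03 (-0.06 to 0.13) in cluster 19. It was lower in Het in cluster 20, at -0.39 (-0.63 to -0.15). In this class all 9 oligodendrocyte markers were higher in Het (323 and 177 CPM summed), and those of subicular, entorhinal or cortical neurons summed to 503 and 372 CPM. Their part in the result was not tested.

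Slit3 in inhibitory neuron-like nuclei was higher in Het in 2 of the 3 clusters. It was at 283 CPM in Het and 143 CPM in WT in cluster 19 (0.99, 0.72 to 1.25) and at 425 and 344 CPM in cluster 10 (0.30, 0.19 to 0.42), and at 240 and 239 CPM in cluster 20. It came from few nuclei, since the 10% with most held 79.3% of its Het and 74.8% of its WT UMIs, and the 1% with most, 3 Het and 4 WT nuclei, held 36.1% and 16.5%. Without that 1%, a setting chosen after the data were seen, Slit3 was at 257 CPM in Het and 244 CPM in WT in the class (0.07, -0.05 to 0.19). Those nuclei were picked by their Slit3 UMIs and held a larger part of these in Het, so leaving them out lowers the ratio by itself. By cluster, leaving out the 1% put it at -0.19 in cluster 10 and -0.67 in cluster 20 and at 1.00 in cluster 19 (0.73 to 1.29). Slit1 in the class was then at 0.30 (0.01 to 0.60), and Dcc at 0.16 (0.10 to 0.22). Unc5c was higher in Het in clusters 10 (0.40) and 19 (0.37) but at 5626 and 5435 CPM in cluster 20, and at 0.13 (0.08 to 0.17) in the class, or 0.26 (0.21 to 0.31) without the 1% of nuclei with most of it.

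Among glia, 1 of 8 genes was past 1.5-fold in astrocyte-like nuclei (Unc5d, lower in Het), against 6.98% of all genes. Dcc was just inside, at 396 CPM in Het and 589 CPM in WT (-0.57, -0.74 to -0.40), and was carried by 32.0% and 41.9% of nuclei. Without the 1% of nuclei with most Dcc it was at -0.75 (-0.94 to -0.55). Markers of dentate granule cells were also lower in Het there (-0.12), and general excitatory markers were higher (0.35). Markers of choroid plexus epithelium summed to 586 CPM in Het and 158 CPM in WT, 8 of 9 higher in Het, and those of red blood cells to 58.0 and 112 CPM, and the part of these markers in the result was not tested. In oligodendrocyte-like nuclei 1 of 7 was past it, against 5.68% of all genes. That was Slit1, higher in Het on 34 and 16 UMIs (0.60, -0.30 to 1.55), at levels no higher than the 20.9 and 22.4 CPM of microglia-like nuclei. Unc5c was at 1197 CPM in Het and 1569 CPM in WT (-0.39, -0.47 to -0.31), by -0.39 in cluster 2 and -0.38 in cluster 7. In this class markers of choroid plexus epithelium summed to 739 CPM in Het and 209 CPM in WT, 8 of 9 higher in Het, those of oligodendrocyte precursors to 208 and 132 CPM, those of microglia to 99.3 and 62.5 CPM and those of red blood cells to 90.8 and 53.6 CPM. Their part in the result was not tested. The choroid plexus markers were also at 943 CPM in Het and 286 CPM in WT microglia-like nuclei, but at 706 and 682 CPM in subicular, entorhinal or cortical-like ones.

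Oligodendrocyte precursor-like nuclei held fewer than 200 nuclei in each library and were not among the classes compared, but 5 genes were lower in Het on UMIs of few nuclei. Slit3 was at 29.9 CPM in Het (18 UMIs in 5 nuclei) and 488 CPM in WT (398 UMIs in 31 nuclei), and 89.4% of the WT UMIs lay in 18 nuclei. Robo2 was at 49.8 and 349 CPM, Unc5d at 39.8 and 229 CPM and Slit1 at 18.3 and 79.6 CPM. Slit2 had 36 UMIs in 28 Het nuclei and 84 UMIs in 29 WT nuclei, a log2 ratio of -0.78 (-1.39 to -0.21), which was -0.35 (-1.06 to 0.34) without the 1% of nuclei with most of it. Choroid plexus markers summed to 445 CPM in Het and 118 CPM in WT nuclei of the class. The 5 general neuron markers summed to 3197 CPM in Het and 4490 CPM in WT nuclei, and the 8 dentate granule markers to 1913 and 2799 CPM, while the 6 excitatory markers summed to 740 CPM in both. In the 19 Het and 34 WT nuclei with no UMI of the excitatory markers, a setting chosen after the data were seen, Slit3 had 0 UMIs in both libraries, Unc5d and Slit1 each 0 in Het and 3 in WT, Slit2 3 in both, and Robo2 2 in Het and 3 in WT. Among all 177 Het nuclei of the class only 5 carried Slit3, 11 Slit1 and 13 Unc5d, so counts of 0 in 19 nuclei show little. Dcc (2574 and 2025 CPM), Ntn1 (189 and 165 CPM), Unc5c (946 and 1075 CPM) and Robo1 (776 and 951 CPM) were also counted there.

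**Figure D4:**
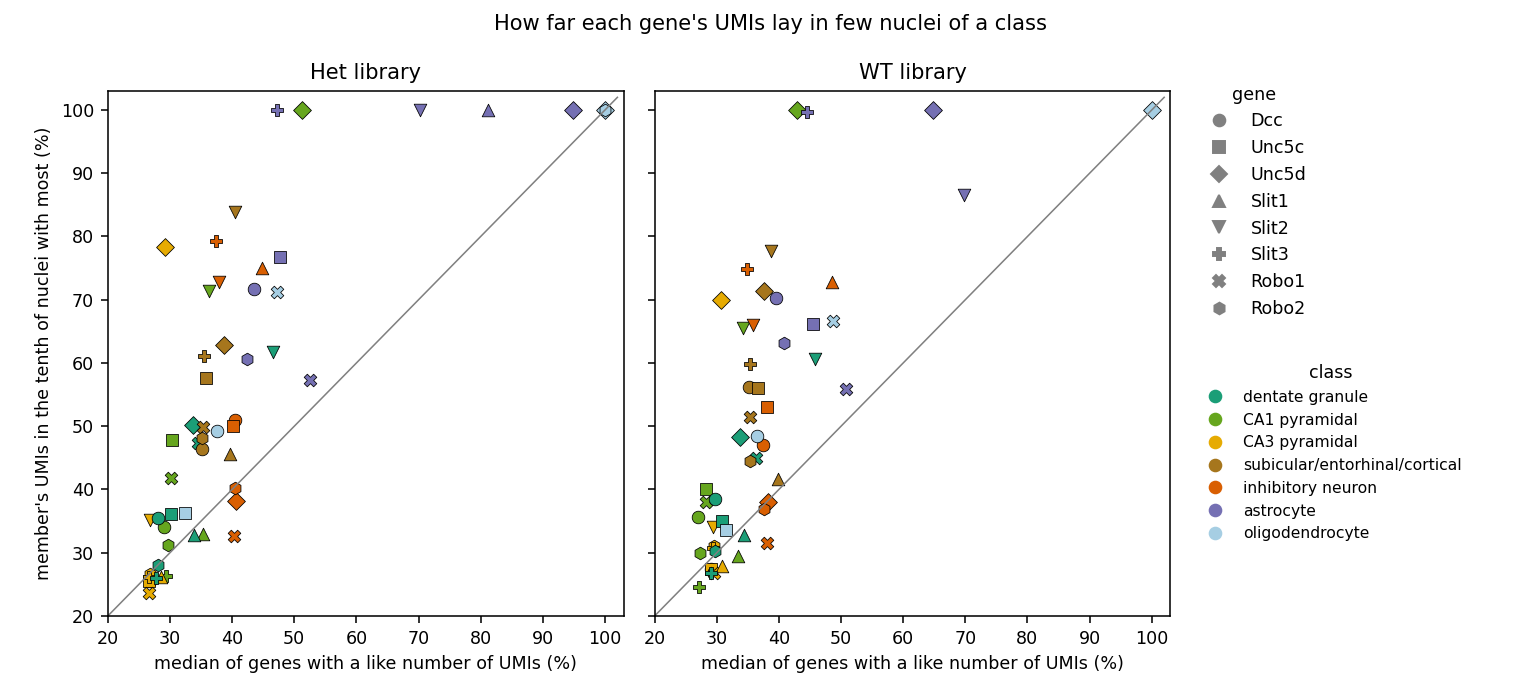
Share of a gene's UMIs in the 10% of nuclei of a class that hold most of it (vertical axis, percent) against the median of genes with 0.5 to 2 times its UMIs in that class (horizontal axis, percent), Het left and WT right, for genes over 50 UMIs. Points above the grey line are genes more unevenly spread than genes of like UMI number, with Unc5d in CA1-like and Slit3 in astrocyte-like nuclei at or near 100%.

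Few other genes of the pathways were past 1.5-fold between the libraries over all nuclei, where 3.82% of the 17873 genes over the floor were. The lists are too short to be set apart from that share. Of 14 other netrin receptor and ligand genes, all over the floor, 0 were past 1.5-fold higher and 1 lower, with a median log2 ratio of 0.01. That was Draxin, a netrin antagonist, on 19 UMIs in Het and 41 in WT (-1.16). Flrt1 was next lowest (-0.30), and Flrt3 (0.12) and Ntn5 (0.11) were highest. Dscam, another netrin receptor gene, was highest in oligodendrocyte precursor-like nuclei (3791 CPM in Het and 2857 CPM in WT), the class that held most Ntn1 UMIs.

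Of 7 other Slit pathway genes 6 were over the floor and none was past 1.5-fold, with a median of -0.03. Robo3, another ROBO receptor gene, was at 23.1 CPM in Het and 18.3 CPM in WT (0.33, 0.21 to 0.45) and Nell2 at 704 and 689 CPM (0.03), and the lowest were Dag1 (-0.20) and Plxna1 (-0.18). Robo4, known as an endothelial receptor, had 15 UMIs in Het and 11 in WT. Of 31 genes of signalling inside the cell, all over the floor, none was past 1.5-fold and 20 were lower in Het, with a median of -0.06, beside 51.9% of all genes lower and a median of -0.01. The lowest were Trim67 (-0.42, on 69 and 89 UMIs) and Srgap2 (-0.21), which encodes a SLIT-ROBO GTPase activating protein and was highest in microglia-like nuclei (2964 and 3212 CPM). The highest were Cap1 (0.17) and Vasp (0.14).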

How the data were processed

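Raw UMI counts, by gene and barcode, were deposited. The authors made them with Cell Ranger 7.1.0 on mm10, per the submitters' processing notes, from 10x Genomics 3' libraries of nuclei released by homogenisation, per the labels' protocols. The sources used here do not say whether intronic reads were counted. All later steps used scanpy 1.11.5, leidenalg 0.10.2 and scipy 1.17.1 under Python 3.11.15. Of 32285 gene identifiers, 32158 were found in GENCODE M21.

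Barcodes with at least 500 genes and at most 5% mitochondrial UMIs were kept, and the highest Scrublet scores were removed at 0.8% per 1000 barcodes (416 Het and 330 WT). Scrublet's automatic threshold marked 0.0139% of Het and 8.05% of WT barcodes and is an alternative. Both libraries were clustered together without integration (2000 variable genes, 30 components, 15 neighbours, Leiden resolution 1), leaving out the 9 genes, Capza2, Xist, Tsix and mitochondrial, ribosomal protein and Y-linked genes. A cluster was named by the highest mean log2 marker ratio (at least 1 with 3 markers detected, or 0.5 among neurons). Clusters with a doublet score at least 2 times the mean, high depth and weak or second marker sets were set apart as mixed (3.89% of Het and 3.45% of WT nuclei). Unnamed nuclei and those with no regional name made up 8.65% and 10.8%. The naming and mixing rules were revised after the data were seen, and the genes, lists and tests were chosen with earlier results of these data known.

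CPM is UMIs per 1e6 UMIs of the same nuclei. Levels carry exact Poisson, shares exact Clopper-Pearson and ratios exact conditional binomial 95% intervals. They leave out the spread between mice, preparations and nuclei, so they are too narrow for a gene held by few nuclei. A count of 0 was set against a limit of 3. Ratios past 1.5-fold were counted only for genes whose 2 libraries together held 50 UMIs or more in the class. Thinning drew 1000 UMIs per nucleus and left out shallower nuclei (292 Het and 106 WT). For each member the 3 genes of most similar pattern were named by the lower r of the 2 libraries, and of each pathway list the 2 highest and 2 lowest ratios. The ratio and thinning steps were tested on simulated data. Promoter windows (120 bases, RefSeq) that overlap an annotated exon were not printed.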

Additional observations from a re-analysis of the deposited data

Results flagged for a closer look

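For 6 genes the interval of the log2 ratio, Het over WT, lay above 0 in 1 class and below 0 in another. The share of all genes that do so is not given here, and the intervals are narrow for genes with many UMIs. The count is therefore not read as a trait of these genes. These differences between classes were not tested, since each rests on 1 library per genotype. Dcc was at 0.21 in inhibitory neuron-like and -0.57 in astrocyte-like nuclei, 0.79 apart. Its inhibitory clusters differed, at 0.33 in cluster 10, 0.03 in cluster 19 and -0.39 in cluster 20. Unc5c was at 0.21 in subicular, entorhinal or cortical-like and -0.39 in oligodendrocyte-like nuclei, 0.60 apart. Robo2 was at 0.08 in inhibitory neuron-like and -0.17 in dentate granule-like nuclei, 0.25 apart. Slit1 was at 0.46 in inhibitory neuron-like and -0.28 in CA1-like nuclei, 0.74 apart. Slit2 was at 0.13 in CA3-like and -0.65 in subicular, entorhinal or cortical-like nuclei, 0.78 apart. Within the CA3-like class it was at -0.47 (-0.58 to -0.37) in cluster 8 and 0.39 (0.31 to 0.48) in cluster 9. Slit3 was at 0.38 in inhibitory neuron-like and -0.16 in CA3-like nuclei, 0.54 apart, but at 0.07 (-0.05 to 0.19) in inhibitory neuron-like nuclei without the 1% of nuclei with most of it.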

How the results depend on the processing

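No paired analysis was possible because each genotype has 1 library. Over all nuclei, weighting every nucleus alike gave log2 ratios, Het over WT, of -0.13 for Dcc, -0.24 for Unc5c, -0.53 for Unc5d, -0.20 for Robo1, -0.13 for Robo2, -0.15 for Slit1, -0.44 for Slit2 and -0.12 for Slit3. Thinning to 1000 UMIs gave -0.11 for Dcc, -0.19 for Unc5c, -0.50 for Unc5d, -0.0698 for Robo2, -0.21 for Slit1, -0.42 for Slit2 and -0.0640 for Slit3. The same mix of clusters in both libraries, added after the data were seen, gave -0.12 for Unc5c, -0.31 for Unc5d, 0.53 for Ntn1, 0.0549 for Robo1, -0.0932 for Robo2, -0.16 for Slit1 and -0.0871 for Slit3. Dcc was at -0.00949 with doublets kept and 0.0202 with the automatic doublet threshold. Unc5d in astrocyte-like nuclei turned to 0.0458 with doublets kept, 1.05 with the automatic threshold, 0.68 with at least 1000 genes and 1.04 at Leiden resolution 2; the cause was not tested. The number of genes past 1.5-fold in CA1-like nuclei was 2 with a floor of 20 UMIs and 2 on thinned counts. It was 2 in CA3-like nuclei on thinned counts. In astrocyte-like nuclei it was 0 with a floor of 200 UMIs and 0 at 2-fold, and in inhibitory neuron-like nuclei 1 with a floor of 20 UMIs and 1 with doublets kept. In oligodendrocyte-like nuclei it was 0 with a floor of 200 UMIs, at 2-fold and on thinned counts, and in subicular, entorhinal or cortical-like nuclei 0 at 2-fold. Of 55 ratios by class, the sign was kept in 51 at resolution 2, 48 with doublets kept, 49 with the automatic threshold, 48 with at least 1000 genes, 51 with nuclei weighted alike and 46 on thinned counts, and of 47 it was kept in 45 with the same mix and 35 in the largest cluster. Without the 1% of nuclei with most of the gene, also added after the data were seen, it was kept in 53 of 55. Ntn1 had fewer than 50 UMIs in every class of at least 200 nuclei, so no ratio by class is given for it.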
